A study of Mus musculus with 20 samples.

Results

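Nuclear receptors are transcription factors that are switched by small molecules which pass through membranes, such as sterols, fatty acids, retinoic acid, steroid hormones and heme. The 10 genes described here cover the liver X receptors Nr1h2 and Nr1h3, the fatty acid receptors Pparg and Ppard, the retinoid receptors Rxra, Rara and Rarb, the glucocorticoid receptor Nr3c1, the vitamin D receptor Vdr and the clock repressor Nr1d1. They were taken as a list of gene symbols from the 24421 genes counted in every library, and all 10 passed the filter on low counts.

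In macrophages, liver X receptors answer to oxidised cholesterol and drive the export of cholesterol, PPARs answer to fatty acids and drive their uptake and oxidation, and retinoic acid receptors answer to a vitamin A product that peritoneal macrophages need for their transcription factor Gata6. All of these, and the vitamin D receptor, bind DNA as partners of a retinoid X receptor such as Rxra. The glucocorticoid receptor binds as a pair with itself and restrains inflammatory genes, and Nr1d1, also called REV-ERB alpha, represses the clock activator Arntl in a daily rhythm.

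RNA was sequenced in bulk from macrophages of C57BL/6JRj mice, for which the labels name no treatment and no altered gene. The 5 populations, with 4 libraries each, were peritoneal macrophages, choroid plexus macrophages, dura macrophages with high MHC class II, dura macrophages with low MHC class II, and microglia of the brain. Cerebrospinal fluid is made by the choroid plexus, and the dura is the tough outer layer of the meninges. The low group is titled "int" but has the cell type label "lo". The labels used here state no age or sex and do not say whether libraries came from separate animals, so p-values reflect only how these libraries vary within a group, part of which may be technical. In bulk RNA, fewer cells of a type and less RNA per cell cannot be told apart.

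Libraries held 13383274 to 32611875 gene counts, the fewest in choroid plexus macrophages. Those of choroid plexus macrophages and microglia held at most 17156227, and all others at least 22203235. Levels are given in CPM, gene counts scaled to a library of 1e+06 after TMM factors, library by library in the order of replicate numbers, which are 1, 3, 4 and 5 in microglia and 1 to 4 elsewhere. The labels fitted the defining markers of each population: the 8 markers of large peritoneal macrophages summed to 27386–48679 CPM in peritoneal libraries and at most 170 CPM elsewhere, and the 8 microglia markers to 28093–37574 CPM in microglia and at most 6283 CPM elsewhere. The 5 MHC class II markers summed to 52638–59097 CPM in MHC II-high and 2099–2327 CPM in MHC II-low dura libraries. Microglia replicate 3 stood apart: 8 markers of choroid plexus epithelium summed to 20127 CPM in it, against 66.0, 708 and 326 CPM in the other microglia libraries and 3931–7420 CPM in choroid plexus macrophages. Its transthyretin transcript Ttr was at 9725 CPM, and its 8 fibroblast markers summed to 133 CPM against 9.71–21.7 CPM in the other microglia. Choroid plexus replicate 4 had 1125 CPM of fibroblast markers against 332–472 CPM in the other choroid plexus libraries. Results that rest on either library are given with and without it.

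A difference is called here if edgeR gave it an adjusted p under 0.05 over all 13960 genes tested and at least a 2-fold change. Log2 fold changes are those of the population named first over the other, and ± gives its approximate standard error, obtained by dividing its size by the root of edgeR's F value. Every one of the 10 receptors differed somewhere among the 5 populations in edgeR's F test over all of them (adjusted p = 0.0214 for Nr1h2, the least certain, and 1.20e-09 for Pparg), as did 81.4% of all genes tested. With each library left out in turn, 9 or 10 of them passed. The plot of all receptors by library shows their levels.

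**Figure D1:**
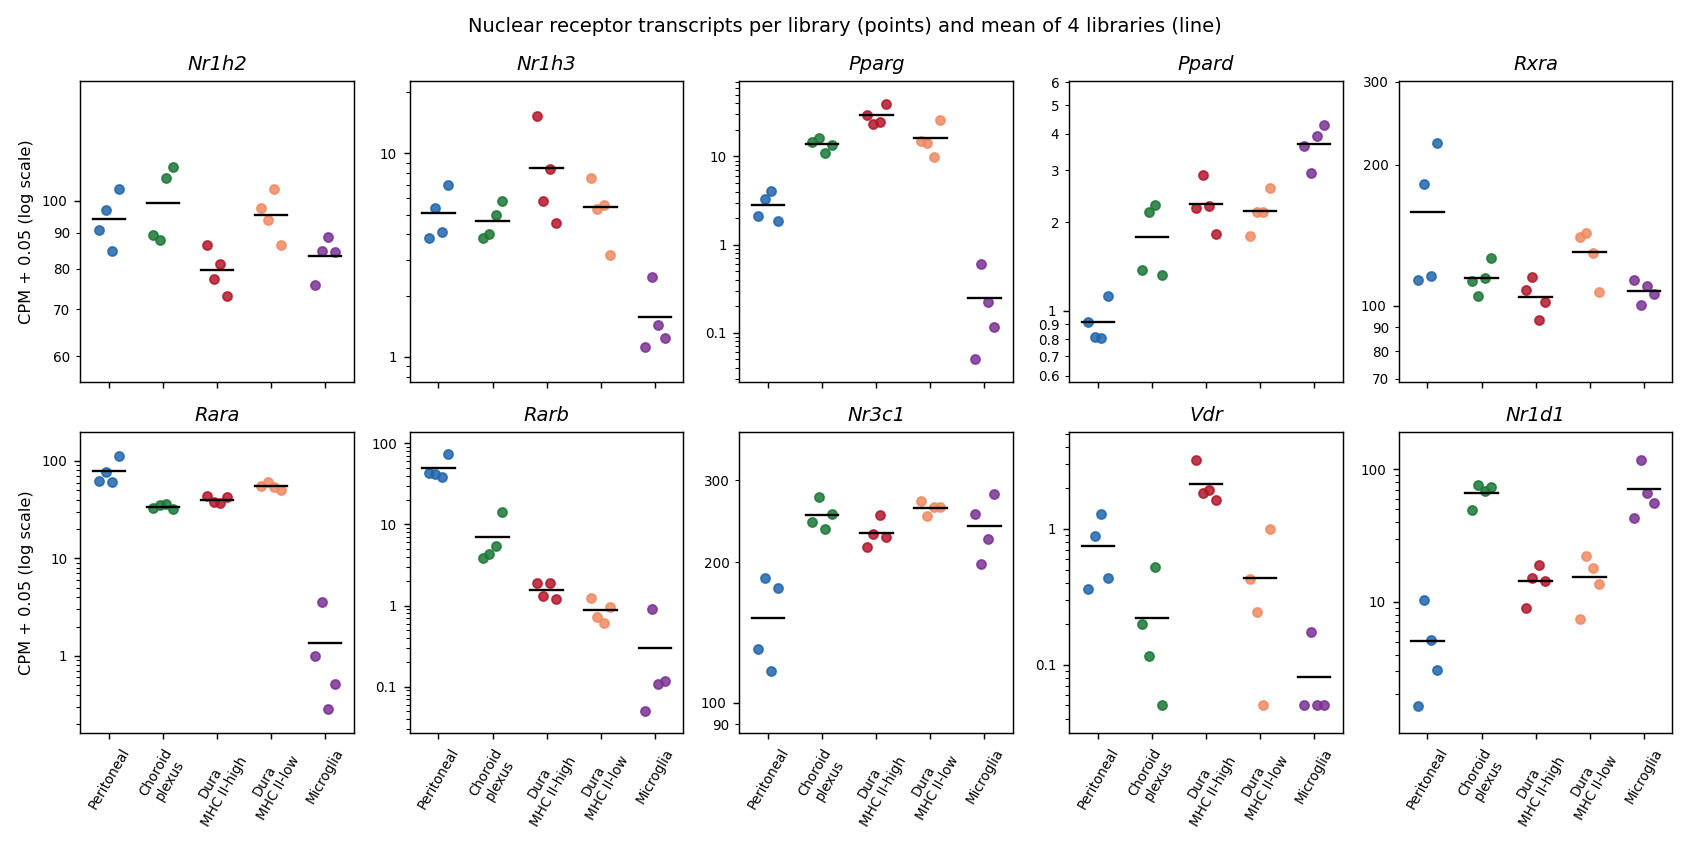
CPM of the 10 receptor genes in each of 20 libraries (points) with the mean of 4 libraries (line), by population, on log axes to which 0.05 CPM was added. Rara, Pparg and Nr1h3 were lowest in microglia, Rarb was highest in peritoneal macrophages, and Nr1h2 stayed within 73.1–112 CPM in every library.

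Rarb and Rara differed widely between the populations, and their partner Rxra little. Rarb encodes retinoic acid receptor beta and is itself a textbook target of retinoic acid, through a response element next to its start site. That element is shown because Rarb is the receptor with the widest range of levels here. The RefSeq promoter window of Rarb, chr14:16575427-16575726 on the minus strand of GRCm38.p6, runs from 250 bases before to 50 bases after the start of the transcript. Capitals mark the retinoic acid response element, a site GGTTCA followed after 5 bases by AGTTCA, which a search of both strands found 53 bases before the start.

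Rarb promoter: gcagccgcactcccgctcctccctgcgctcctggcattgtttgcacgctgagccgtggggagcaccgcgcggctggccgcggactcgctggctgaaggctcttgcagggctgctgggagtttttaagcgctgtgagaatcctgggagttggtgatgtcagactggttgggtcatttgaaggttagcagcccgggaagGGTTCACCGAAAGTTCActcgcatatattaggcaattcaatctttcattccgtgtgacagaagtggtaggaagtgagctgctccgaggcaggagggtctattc

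Of 32851 promoter windows of the same length, 2 held this motif (0.00609%). Promoter windows were at hand for 9 of the 10 receptors, and Rarb was the 1 receptor with a match to these letters. The letters searched were those of the known Rarb element, so the match and its rarity are no test. Retinoic acid response elements with other letters at the same spacing were not searched, so the other receptors are not shown to lack one. The core site AGGTCA of nuclear receptors, found in 16.3% of all windows, lay in windows of Pparg, Rxra and Rara but not in that of Rarb, and its direct repeats with 1, 2 or 4 bases between, found in 0.0396%, 0.00913% and 0.0152% of all windows, lay in no window of these genes. The clock motif CACGTG, in 7.15% of all windows, lay in windows of Rara, and TTATGTAA, in 0.938%, lay in none. A match is a string of letters and does not show binding.

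Rarb was at 42.4, 42.2, 38.2 and 72.8 CPM in peritoneal macrophages and at 3.84, 4.29, 5.42 and 14.2 CPM in choroid plexus macrophages. Dura libraries had 1.83, 1.25, 1.83 and 1.14 CPM in the MHC II-high group and 1.17, 0.675, 0.565 and 0.917 CPM in the MHC II-low group. Microglia had 0, 0.864, 0.0579 and 0.0661 CPM, from 0, 14, 1 and 1 counts. Every peritoneal library was above every other library, every choroid plexus library was above all dura and microglia libraries, and the 2 dura groups overlapped. Replicate 4 was the highest in both peritoneal and choroid plexus macrophages, and replicate 3 was the highest in microglia.

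Against microglia, Rarb rose in peritoneal (log2 fold change 7.59 ± 0.68, edgeR adjusted p = 1.06e-08), choroid plexus (4.78 ± 0.66) and MHC II-high dura macrophages (2.58 ± 0.69, edgeR adjusted p = 0.00411). In MHC II-low dura the change of 1.72 ± 0.72 was not called (edgeR adjusted p = 0.0537). DESeq2 called it at 1.67 (DESeq2 adjusted p = 0.0121), as did edgeR without choroid plexus replicate 4 (edgeR adjusted p = 0.0266). Of the 16 Rarb counts in microglia, 14 came from replicate 3, the library with epithelial transcripts. Without it the 4 log2 fold changes were 9.997, 7.16, 4.96 and 4.09 in the same order, and that of MHC II-low dura was called (edgeR adjusted p = 0.00128). Peritoneal macrophages also had more Rarb than choroid plexus (2.81 ± 0.49), MHC II-high (5.01 ± 0.55) and MHC II-low dura macrophages (5.87 ± 0.58).

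Choroid plexus macrophages had more Rarb than MHC II-high (2.19 ± 0.51, edgeR adjusted p = 0.00447) and MHC II-low dura macrophages (3.06 ± 0.53). Without choroid plexus replicate 4, which was also the highest in fibroblast markers, these were 1.58 (edgeR adjusted p = 0.0234) and 2.44, the change over microglia was 4.16, and that of peritoneal over choroid plexus macrophages was 3.43. All 4 were still called. The part of fibroblasts in the choroid plexus level was not tested. Exons of Top2b on the opposite strand cover 34.1% of the exon length of Rarb, and the strand setting of the counting was not stated. Top2b was at 153–199 CPM in peritoneal libraries and at 72.6–164 CPM elsewhere, and over the 20 libraries its Pearson correlation with Rarb was 0.65.

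Rara, retinoic acid receptor alpha, was at 62.7, 76.6, 60.4 and 112 CPM in peritoneal macrophages and at 32.7, 34.9, 36.5 and 32.0 CPM in choroid plexus macrophages. In dura it was at 43.2, 38.0, 37.0 and 42.5 CPM in MHC II-high and 55.5, 61.3, 54.4 and 50.1 CPM in MHC II-low libraries. Microglia had 0.940, 3.52, 0.232 and 0.463 CPM. Microglia thus lay below every library of the other 4 populations, with replicate 3 at the top of the group. Rara rose against microglia in peritoneal (5.91 ± 0.44, edgeR adjusted p = 1.02e-09), choroid plexus (4.72 ± 0.43), MHC II-high (4.96 ± 0.43) and MHC II-low dura macrophages (5.42 ± 0.43). Without microglia replicate 3 these became 7.13, 5.90, 6.14 and 6.60.

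Among the other populations, the 1 called difference in Rara was its rise in peritoneal over choroid plexus macrophages (1.20 ± 0.33, edgeR adjusted p = 0.00431). Peritoneal over MHC II-high dura macrophages gave 0.96 ± 0.33, short of 2-fold (edgeR adjusted p = 0.0192), but was called with upper-quartile factors, just past 2-fold, and without peritoneal replicate 1 or 3 (1.05 and 1.06) or MHC II-high replicate 1 (1.02). The 4 MHC II-high libraries lay below the 4 MHC II-low libraries, but the difference of −0.46 ± 0.32 was not called (edgeR adjusted p = 0.421).

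Rxra, the common partner of these receptors, was at 113, 182, 116 and 222 CPM in peritoneal macrophages, where replicates 2 and 4 were high, and at 93.4–143 CPM in all other libraries. Its largest differences were those of peritoneal over MHC II-high dura macrophages (0.60 ± 0.16, edgeR adjusted p = 0.00409) and over microglia (0.56 ± 0.16, edgeR adjusted p = 0.00474), both short of 2-fold. Rxra was called in none of the 10 comparisons.

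Rarg, the remaining retinoic acid receptor, was at 76.5 ± 16.3 CPM in peritoneal macrophages, 20.1 ± 1.53 CPM in choroid plexus macrophages, 20.7 ± 2.65 and 14.99 ± 1.92 CPM in MHC II-high and MHC II-low dura and 1.69 ± 0.766 CPM in microglia (SD, n = 4 each). It rose in all 4 against microglia, by 5.50 ± 0.25, 3.57 ± 0.24, 3.61 ± 0.24 and 3.15 ± 0.24 in that order. All 3 retinoic acid receptors were thus highest by mean in peritoneal macrophages and lowest in microglia.

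Of 16 tested genes of retinoid metabolism and known retinoid targets, 5 were higher and 5 lower in peritoneal macrophages than in microglia, with a median log2 fold change of −1.39 against −0.11 over all genes. Here and for the gene lists that follow, the shares of all genes called over microglia were 18.9% higher and 25.7% lower in peritoneal, 12.1% and 7.11% in choroid plexus, 15.7% and 12.2% in MHC II-high dura and 13.8% and 12.7% in MHC II-low dura macrophages. Cyp26a1, the enzyme that breaks retinoic acid down, was at 83.0, 47.4, 75.0 and 80.7 CPM in peritoneal macrophages and had no counts in microglia, so it was at least 1537-fold higher against 3 counts over the group. Aldh1a2, which makes retinoic acid, was at 55.1, 54.7, 37.0 and 73.9 CPM in peritoneal macrophages against 0 counts in microglia, at least 1166-fold higher. Both were low in the other populations: Cyp26a1 had 0 counts in choroid plexus macrophages and at most 0.178 CPM in a dura library, and Aldh1a2 reached 0.762 CPM in choroid plexus, 7.21 CPM in MHC II-high and 5.85 CPM in MHC II-low dura libraries.

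Gata6 was at 172 ± 19.8 CPM in peritoneal macrophages and 1.18 ± 1.40 CPM in microglia (SD, n = 4 each), a log2 fold change of 7.17 ± 0.81, or 8.33 without microglia replicate 3. Tgm2, a transglutaminase induced by retinoic acid, ran the other way, with 19.3 ± 11.9 CPM in peritoneal macrophages against 125 ± 25.3 CPM in microglia (−2.69 ± 0.34), and it fell against microglia in choroid plexus (−3.33 ± 0.35), MHC II-high (−2.60 ± 0.34) and MHC II-low dura macrophages (−2.78 ± 0.34) as well. The retinol uptake receptor Stra6 had no counts in peritoneal macrophages, and in microglia it was at 0.940, 59.1, 1.33 and 1.32 CPM, high in replicate 3 alone. The plot of retinoid genes by library shows these levels.

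**Figure D2:**
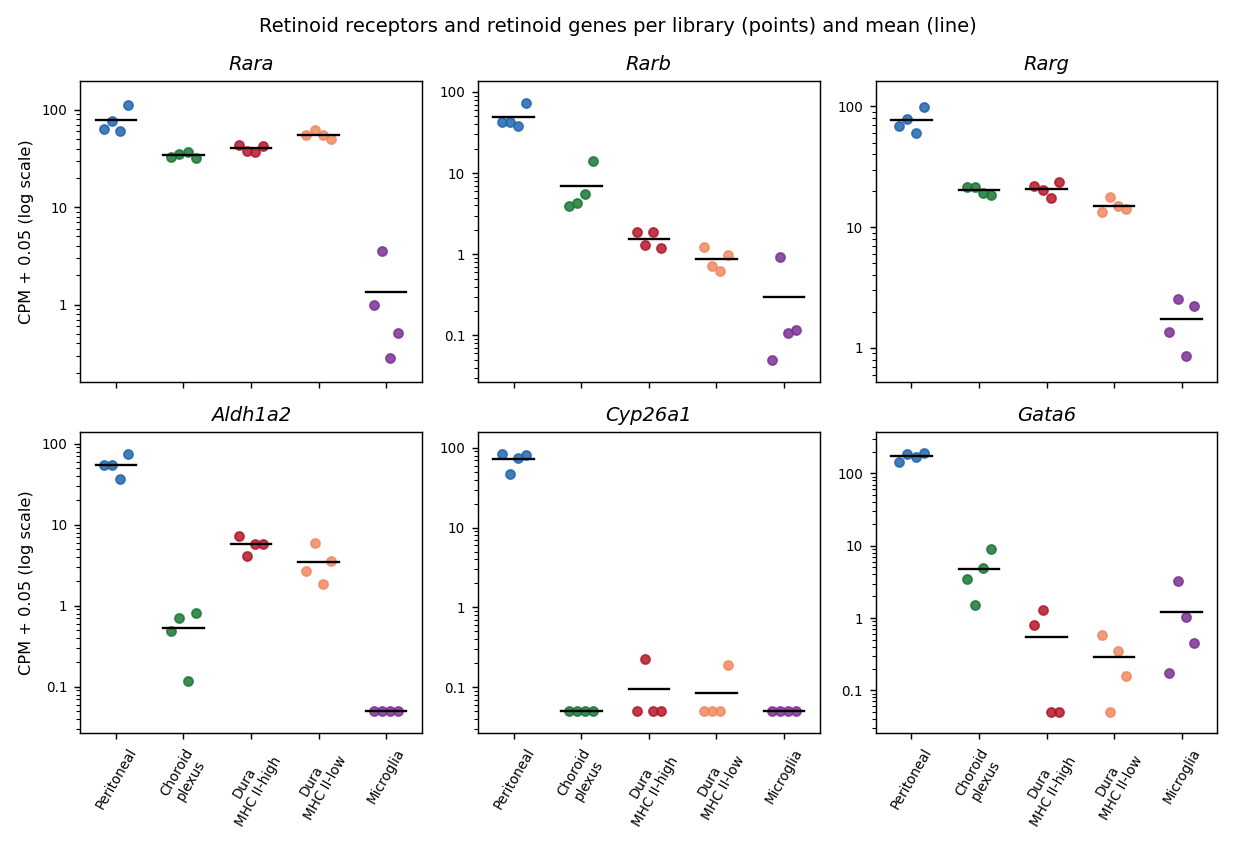
CPM of Rara, Rarb, Rarg, Aldh1a2, Cyp26a1 and Gata6 in each library (points) with the mean of 4 libraries (line), by population, on log axes to which 0.05 CPM was added. Each gene was highest by mean in peritoneal macrophages, and Cyp26a1 had no counts in choroid plexus macrophages or microglia.

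In the other populations 4 or 5 of the same 16 genes were called against microglia. In choroid plexus macrophages 3 were higher (Aldh1a2, Crabp1 and Rbp4) and 1, Tgm2, lower, with 6 higher without microglia replicate 3. In MHC II-high dura 3 were higher (Aldh1a2, Crabp1 and Crabp2) and 2 lower (Rdh10 and Tgm2, with 1 lower without microglia replicate 3). In MHC II-low dura 2 were higher (Aldh1a2 and Crabp2) and 2 lower (Stra6 and Tgm2), with Stra6 at −0.84 and not called without microglia replicate 3, 1 lower without MHC II-low replicate 1 or 3 and 4 lower without microglia replicate 1. Their medians were 0.39, 0.75 and 0.30. The fit of only the 2 populations gave 1 higher each in choroid plexus and MHC II-high dura and 1 lower in MHC II-low dura. Limma-voom gave 5 higher in choroid plexus and 1 lower in each dura group, and the 10 CPM filter 3 higher in peritoneal and 1 higher in each dura group. Between the dura groups edgeR called 0 of 16, with a median of 0.27.

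The liver X receptors differed from each other in level and in pattern. Nr1h2, LXR beta, was at 94.1 ± 8.23 CPM in peritoneal macrophages, 99.0 ± 12.3 CPM in choroid plexus macrophages, 79.5 ± 5.67 CPM in the MHC II-high and 95.4 ± 7.33 CPM in the MHC II-low dura group and 83.4 ± 5.43 CPM in microglia (SD, n = 4 each). Its highest mean was 1.25 times its lowest, and it was called nowhere. The 3 comparisons with an adjusted p under 0.05 were short of 2-fold: choroid plexus over MHC II-high dura macrophages (0.32 ± 0.10, edgeR adjusted p = 0.0208), peritoneal over MHC II-high dura macrophages (0.24 ± 0.10, edgeR adjusted p = 0.0391) and choroid plexus macrophages over microglia (0.25 ± 0.10, edgeR adjusted p = 0.0450). Without microglia replicate 3 the change of choroid plexus over microglia was 0.19 (edgeR adjusted p = 0.167). Without choroid plexus replicate 4 it was 0.19 (edgeR adjusted p = 0.158), and that over MHC II-high dura was 0.26 (edgeR adjusted p = 0.0754).

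Nr1h3, LXR alpha, was at 3.80, 5.36, 4.07 and 6.94 CPM in peritoneal macrophages and at 3.77, 3.96, 4.94 and 5.78 CPM in choroid plexus macrophages. Dura had 15.2, 5.75, 8.31 and 4.48 CPM in MHC II-high and 7.53, 5.30, 5.54 and 3.10 CPM in MHC II-low libraries, and microglia had 1.07, 2.41, 1.39 and 1.19 CPM. All microglia libraries were below all others, and the other 4 populations overlapped. Against microglia Nr1h3 rose in peritoneal (1.73 ± 0.38, edgeR adjusted p = 0.000509), choroid plexus (1.60 ± 0.39), MHC II-high (2.48 ± 0.39) and MHC II-low dura macrophages (1.82 ± 0.38). With all libraries no other comparison of Nr1h3 was called, and the test did not tell apart neighbours in the order of means above microglia. Choroid plexus over MHC II-high dura macrophages gave −0.87 ± 0.37 (edgeR adjusted p = 0.0844). It was called without MHC II-high replicate 4 (−1.08, edgeR adjusted p = 0.0426), and lay between −1.08 and −0.43 with single libraries left out.

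Per kilobase of exon, Nr1h2 exceeded Nr1h3 in every library. The log2 ratio of Nr1h3 to Nr1h2 per length was −3.84 ± 0.29 in peritoneal, −4.01 ± 0.12 in choroid plexus, −2.97 ± 0.66 in MHC II-high and −3.80 ± 0.45 in MHC II-low dura macrophages and −5.41 ± 0.48 in microglia (SD, n = 4 each). The 4 microglia libraries, from −5.70 to −4.70, lay below all 16 others.

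Of 17 LXR target genes, 8 were higher and 7 lower in peritoneal macrophages than in microglia, 5 and 5 in choroid plexus, 6 and 4 in MHC II-high dura and 7 and 4 in MHC II-low dura macrophages. In the fit of only the 2 populations, 3 and not 6 were higher in MHC II-high dura. The lipid carrier Apoe rose against microglia in choroid plexus (5.41 ± 0.18), MHC II-high (4.77 ± 0.17) and MHC II-low dura macrophages (5.05 ± 0.17), with 43649 ± 2966, 28007 ± 1629 and 34136 ± 3993 CPM against 1029 ± 172 CPM in microglia (SD, n = 4 each). The phospholipid transfer protein Pltp and the lipase Lpl also rose in these 3, by 2.73 and 1.77 in choroid plexus, 4.29 and 3.27 in MHC II-high and 4.09 and 2.45 in MHC II-low dura. The efferocytosis receptor Mertk and the phospholipid enzyme Lpcat3 fell: Mertk was at 130 ± 11.6, 131 ± 12.2 and 201 ± 12.6 CPM in the 3 border populations in the same order, against 677 ± 89.9 CPM in microglia. In peritoneal macrophages Cd5l, a secreted scavenger protein, was at 2392 ± 470 CPM against 0.511 ± 0.102 CPM in microglia (12.18 ± 0.47, SD and n = 4 for the levels). The medians of the list were 0.11 in peritoneal, 0.09 in choroid plexus, −0.29 in MHC II-high and −0.19 in MHC II-low dura macrophages, and 0 of 17 were called between the dura groups, or 1 lower without MHC II-high replicate 2.

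Pparg, the fatty acid receptor best known from fat cells and alveolar macrophages, was highest in dura. It was at 2.07, 3.21, 4.03 and 1.80 CPM in peritoneal macrophages and 14.6, 16.0, 11.0 and 13.6 CPM in choroid plexus macrophages. Dura libraries had 29.6, 23.5, 24.7 and 39.5 CPM in the MHC II-high and 14.8, 14.1, 9.84 and 26.0 CPM in the MHC II-low group, and microglia had 0, 0.556, 0.174 and 0.0661 CPM, from 0, 9, 3 and 1 counts. Microglia were lowest and peritoneal macrophages next, with no overlap between them or with the rest, while MHC II-low dura overlapped with both choroid plexus and MHC II-high dura.

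Against microglia Pparg rose in peritoneal (3.76 ± 0.53, edgeR adjusted p = 3.35e-06), choroid plexus (6.06 ± 0.52), MHC II-high (7.15 ± 0.52, edgeR adjusted p = 7.25e-10) and MHC II-low dura macrophages (6.29 ± 0.52). Without microglia replicate 3, which held 9 of the 13 microglia counts, these were 4.96, 7.23, 8.32 and 7.46. Peritoneal macrophages had less Pparg than choroid plexus (−2.30 ± 0.37), MHC II-high (−3.40 ± 0.38) and MHC II-low dura macrophages (−2.54 ± 0.37). Choroid plexus macrophages had less than MHC II-high dura macrophages (−1.09 ± 0.35, edgeR adjusted p = 0.0274), a call lost without MHC II-high replicate 4 or without choroid plexus replicate 1, 3 or 4 (edgeR adjusted p = 0.0942, 0.0533, 0.0770 and 0.0637). MHC II-high over MHC II-low dura gave 0.86 ± 0.35 and was not called (edgeR adjusted p = 0.126).

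Ppard, the more widely expressed fatty acid receptor, was highest in microglia, where Pparg was lowest, and like Pparg was lower in peritoneal than in choroid plexus and dura macrophages. It was at 0.864, 0.765, 0.759 and 1.07 CPM in peritoneal macrophages and 1.33, 2.11, 2.23 and 1.27 CPM in choroid plexus macrophages. MHC II-high dura had 2.18, 2.85, 2.22 and 1.77 CPM, MHC II-low dura 1.74, 2.12, 2.11 and 2.57 CPM, and microglia 3.57, 2.90, 3.88 and 4.23 CPM. Microglia were above, and peritoneal macrophages below, every library of the other populations. Ppard fell against microglia in peritoneal (−2.07 ± 0.33, edgeR adjusted p = 1.53e-05) and choroid plexus macrophages (−1.07 ± 0.32, edgeR adjusted p = 0.0116), the second of which was −0.94 and not called without choroid plexus replicate 4. In MHC II-high and MHC II-low dura the changes of −0.69 ± 0.32 and −0.77 ± 0.32 were not called. Peritoneal macrophages had less Ppard than MHC II-high (−1.38 ± 0.33) and MHC II-low dura macrophages (−1.30 ± 0.33), and the difference from choroid plexus macrophages stood at the 2-fold limit (−1.003 ± 0.33, edgeR adjusted p = 0.0121). That last call was lost without any 1 of 11 libraries, 4 of them microglia, where it lay between −0.97 and −0.83, and in all 7 other settings that tested the gene, where it also fell short of 2-fold.

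Per length, Pparg exceeded Ppard by 2.95 ± 0.75 on the log2 scale in peritoneal, 4.34 ± 0.54 in choroid plexus, 5.03 ± 0.60 in MHC II-high and 4.18 ± 0.48 in MHC II-low dura macrophages. In microglia the ratio was reversed at −3.37 ± 1.91 (SD, n = 4 each, with 0.5 added to each count), and all 4 microglia libraries were below 0. Before division by length the microglia ratio was −4.72, and it was −5.51 without microglia replicate 3 and −4.01 without replicate 1.

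Of 14 tested PPAR targets, 8 were higher and 2 lower in peritoneal macrophages than in microglia, 5 and 1 in choroid plexus (0 lower without microglia replicate 1), 6 and 0 in MHC II-high dura and 6 and 1 in MHC II-low dura macrophages. The medians were 1.32, 0.52, 0.68 and 1.08. The fatty acid transporter Cd36 was among those higher in all 4, at 878 ± 174, 308 ± 25.8, 697 ± 114 and 786 ± 104 CPM in that order against 1.18 ± 0.815 CPM in microglia (SD, n = 4 each). So was the lipid droplet protein Plin2, with log2 fold changes of 1.98 ± 0.15 in choroid plexus, 2.95 ± 0.15 in MHC II-high and 3.40 ± 0.15 in MHC II-low dura macrophages. Peritoneal macrophages, which had the least Pparg of the 4, had 274 ± 33.9 CPM of the fatty acid binding protein Fabp4 and 212 ± 46.5 CPM of Fabp5 (SD, n = 4), against 1 Fabp4 count in all microglia and 1.09 ± 0.407 CPM of Fabp5. The 10 CPM filter gave 0 lower in all 4, and the fit of only the 2 populations 1 lower in peritoneal and 0 lower in MHC II-low dura macrophages. Between the dura groups 0 of 14 were called, with a median of −0.11, or 1 lower in the fit of only those 2 groups.

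Nr3c1, the glucocorticoid receptor, was lowest in peritoneal macrophages. It was at 131, 185, 117 and 176 CPM in peritoneal macrophages and between 198 and 280 CPM in all other libraries, with no overlap. Peritoneal macrophages had less than choroid plexus (−0.73 ± 0.13, edgeR adjusted p = 5.37e-05), MHC II-high (−0.60 ± 0.13) and MHC II-low dura macrophages (−0.78 ± 0.13, edgeR adjusted p = 2.66e-05) and microglia (−0.65 ± 0.13), each short of 2-fold. The means of the other 4 populations lay within 231–262 CPM and were not told apart by the test.

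Of 15 genes of the glucocorticoid response, 5 were higher and 9 lower in peritoneal macrophages than in microglia, 5 and 3 in choroid plexus, 7 and 4 in MHC II-high dura and 7 and 4 in MHC II-low dura macrophages. The kinase Sgk1 was at 101 ± 15.6, 205 ± 31.9, 114 ± 12.6 and 106 ± 23.9 CPM in these populations against 3924 ± 205 CPM in microglia (SD, n = 4 each), with log2 fold changes of −5.29, −4.26, −5.11 and −5.21. The hemoglobin receptor Cd163 went the other way, with 29.3 ± 3.73, 279 ± 22.9, 671 ± 71.0 and 1127 ± 133 CPM against 0.434 ± 0.511 CPM in microglia (SD, n = 4 each). Its log2 fold changes of 6.06, 9.31, 10.58 and 11.32 became 7.24, 10.46, 11.73 and 12.50 without microglia replicate 1. The phosphatase Dusp1 was at 177 ± 16.4 CPM in peritoneal macrophages against 5635 ± 653 CPM in microglia (−4.99 ± 0.25). The medians of the list were −1.84, 0.26, −0.14 and −0.0024. Between the dura groups Anxa1 and Zbtb16 were higher in MHC II-high cells, Anxa1 with 44.5 ± 11.2 against 20.2 ± 3.75 CPM (1.14 ± 0.25, and 0.96, short of 2-fold, without MHC II-high replicate 3).

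Vdr, the vitamin D receptor, was scarce. It was at 0.311, 0.838, 1.24 and 0.386 CPM in peritoneal and 0.148, 0.0659, 0.474 and 0 CPM in choroid plexus macrophages. MHC II-high dura libraries had 3.16, 1.78, 1.87 and 1.57 CPM, above every other library, against 0.379, 0.193, 0 and 0.952 CPM in the MHC II-low group and 0, 0.123, 0 and 0 CPM in microglia. The 2 counts in microglia both came from replicate 3. The ratio of Vdr CPM to that in microglia was 22.9 (95% interval 6.12–192, for counting error only) in peritoneal, 5.45 (1.16–51.2) in choroid plexus, 70.0 (19.1–581) in MHC II-high and 12.3 (3.22–105) in MHC II-low dura macrophages. Without microglia replicate 3, microglia held 0 Vdr counts. Set against 3 counts over that group, Vdr was then at least 11.4-fold higher in peritoneal, at least 34.9-fold higher in MHC II-high and at least 6.17-fold higher in MHC II-low dura macrophages.

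Vdr was called higher than in microglia in peritoneal (edgeR adjusted p = 0.00613), MHC II-high (edgeR adjusted p = 0.000864) and MHC II-low dura macrophages (edgeR adjusted p = 0.0330). The call of MHC II-low dura was lost without its replicate 4 (edgeR adjusted p = 0.146) and without microglia replicate 1, 4 or 5 (edgeR adjusted p = 0.0809, 0.0848 and 0.0832), with the replicate block (edgeR adjusted p = 0.0792) and by limma-voom (adjusted p = 0.182). Choroid plexus macrophages had less than MHC II-high dura macrophages (−3.58 ± 1.10, edgeR adjusted p = 0.0221), a call lost without choroid plexus replicate 1, 2 or 4 (edgeR adjusted p = 0.0590, 0.0610 and 0.0616), and −4.82 without replicate 3. Peritoneal over MHC II-high dura gave −1.59 ± 0.97 with no overlap and was not called (edgeR adjusted p = 0.175). Limma-voom (−1.75, limma-voom adjusted p = 0.0176) and the fit of only these 2 populations (−1.55, edgeR adjusted p = 0.0374) called it. MHC II-high over MHC II-low dura gave 2.44 ± 1.00, which edgeR did not call (edgeR adjusted p = 0.133) although the libraries did not overlap. It was 3.43 without MHC II-low replicate 4 and 2.04 without MHC II-low replicate 3, not called by edgeR either way, and limma-voom called it at 3.38. Monocyte markers were also higher in MHC II-high dura, at 1070–1259 against 87.2–153 CPM summed over 7 genes in MHC II-low dura, and their part in the Vdr level was not tested. Of 7 genes of vitamin D metabolism 2 passed the filter on low counts, and Cyp27a1, a vitamin D and sterol hydroxylase, rose against microglia in choroid plexus (1.84 ± 0.11), MHC II-high (1.66 ± 0.11) and MHC II-low dura macrophages (2.06 ± 0.11).

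Nr1d1 was high in choroid plexus macrophages and microglia and low elsewhere. It was at 1.59, 10.3, 5.10 and 3.0002 CPM in peritoneal macrophages and at 49.3, 75.8, 68.5 and 73.4 CPM in choroid plexus macrophages. Dura had 8.90, 14.98, 18.96 and 14.2 CPM in MHC II-high and 7.42, 22.0, 18.1 and 13.6 CPM in MHC II-low libraries, and microglia had 42.8, 118, 66.3 and 56.0 CPM. Choroid plexus macrophages and microglia lay above all other libraries and overlapped with each other, as did the 2 dura groups, and peritoneal replicate 2 reached into the dura range. Markers of choroid plexus epithelium were also highest in these groups, at 3931–7420 CPM in choroid plexus libraries and 20127 CPM in microglia replicate 3. In microglia Nr1d1 followed the order of these markers, from replicate 1 (66.0 CPM of markers, 42.8 CPM of Nr1d1) to replicate 3. In choroid plexus macrophages the library with the most of these markers, replicate 1 at 7420 CPM, had the least Nr1d1. The part of epithelial transcripts in these levels was not tested. Choroid plexus and microglia libraries, titled NCPM and NMG, also held fewer gene counts than all others. The labels used here do not state whether they were made as a separate set. An effect of such a set on Nr1d1 could not be told apart from that of population.

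Choroid plexus macrophages and microglia did not differ by the test (−0.09 ± 0.44, 95% interval −0.94 to 0.77, edgeR adjusted p = 0.903). Nr1d1 fell against microglia in peritoneal (−3.82 ± 0.50, edgeR adjusted p = 2.63e-06), MHC II-high (−2.32 ± 0.46) and MHC II-low dura macrophages (−2.21 ± 0.46), and it was higher in choroid plexus than in MHC II-high (2.23 ± 0.46) and MHC II-low dura macrophages (2.13 ± 0.46). Peritoneal macrophages had less than choroid plexus (−3.74 ± 0.49), MHC II-high (−1.51 ± 0.47) and MHC II-low dura macrophages (−1.61 ± 0.47). Without peritoneal replicate 2 these 3 were −4.37, −2.13 and −2.24, and that against microglia was −4.45. Without microglia replicate 3 the changes over microglia were −3.49 in peritoneal, 0.21 in choroid plexus, −2.01 in MHC II-high and −1.92 in MHC II-low dura macrophages, with the same 3 called. Exons of Thra on the opposite strand cover 8.55% of the exon length of Nr1d1, and Thra was at 2.88–15.8 CPM over all libraries.

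Of 21 clock genes, 3 were higher and 12 lower in peritoneal macrophages than in microglia, with a median of −1.24. Nr1d2, the close relative of Nr1d1, was at 22.9 ± 9.94 against 91.0 ± 20.6 CPM (−1.99 ± 0.24), the period gene Per1 at 4.74 ± 2.86 against 165 ± 52.2 CPM (−5.12 ± 0.42), and the clock output gene Dbp at 0.977 ± 0.776 against 17.1 ± 6.38 CPM (−4.11 ± 0.42, and −4.74 without peritoneal replicate 2; SD, n = 4 each). Arntl, the activator that Nr1d1 represses, was at 41.0 ± 8.96 against 17.6 ± 2.03 CPM (1.22 ± 0.17). It was also higher than in microglia in MHC II-low dura (1.79 ± 0.17) and in MHC II-high dura macrophages (1.11 ± 0.17, and 0.89 and 0.99, short of 2-fold, without MHC II-high replicate 3 and without microglia replicate 1).

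In choroid plexus macrophages 2 clock genes were higher than in microglia, Dbp (1.48 ± 0.35) and the receptor gene Rora (1.41 ± 0.27), and 6 were lower, among them Ciart (−2.86 ± 0.56), Cry1 (−2.05 ± 0.40) and Per1 (−1.38 ± 0.35). In MHC II-high dura 3 were higher and 5 lower, and in MHC II-low dura 2 were higher and 5 lower, with Per1 at −2.32 ± 0.36 and −2.14 ± 0.36. The medians were −0.01, −0.49 and −0.09. Between the dura groups the call of Bhlhe41, higher in MHC II-high cells (1.44 ± 0.44, edgeR adjusted p = 0.0466), was the 1 call of 21 and was lost without any 1 of 14 libraries (edgeR adjusted p = 0.0540 to 0.133) and with no filter, the replicate block or only the 2 populations. The labels give no time of day for any sample. The plot of clock genes by library shows these levels.

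**Figure D3:**
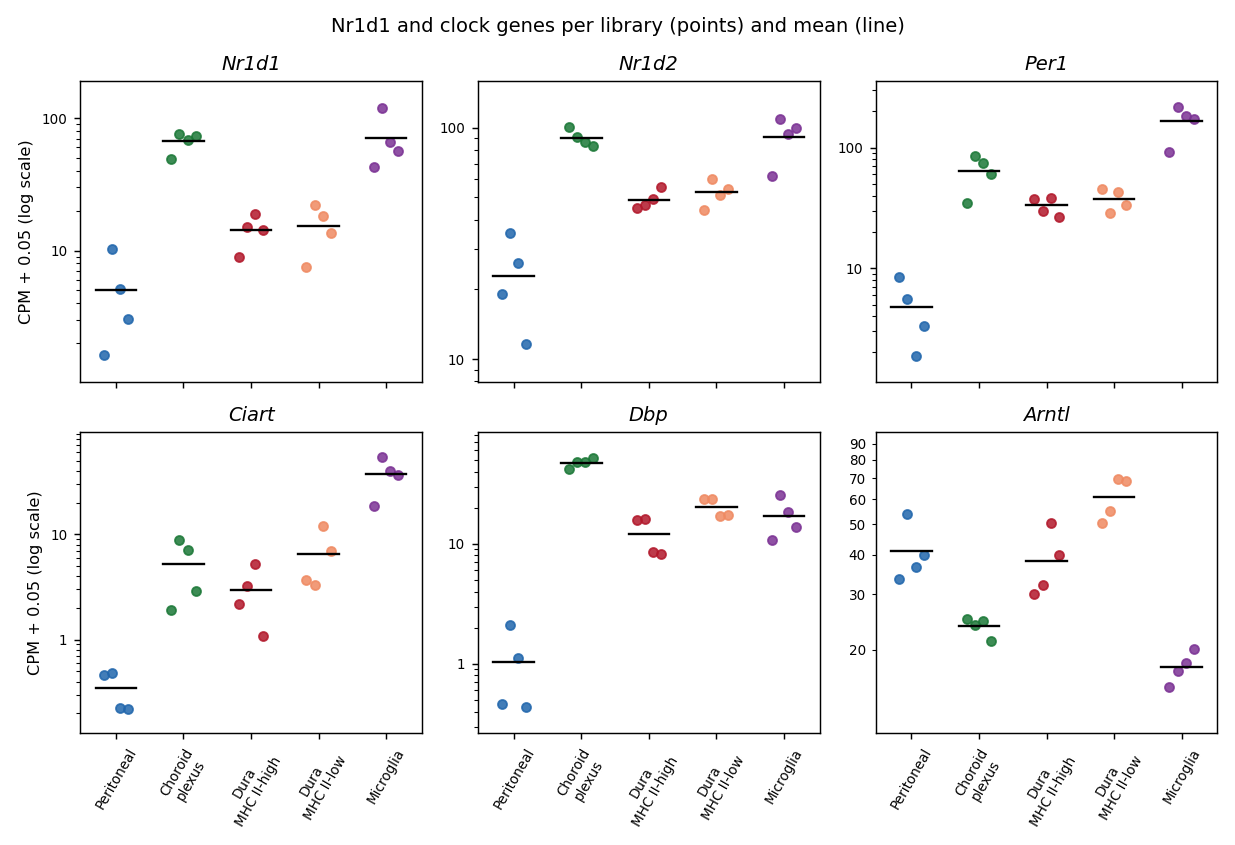
CPM of Nr1d1 and 5 clock genes in each library (points) with the mean of 4 libraries (line), by population, on log axes to which 0.05 CPM was added. Nr1d1, Nr1d2, Per1, Ciart and Dbp were lowest by mean in peritoneal macrophages, and Arntl was lowest in microglia.

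Set side by side, 5 to 7 receptors were called in each comparison with microglia. In peritoneal macrophages 7 of the 10 were called, 5 higher (Nr1h3, Pparg, Rara, Rarb and Vdr) and 2 lower (Ppard and Nr1d1), where 44.6% of all genes were called, 18.9% higher and 25.7% lower. In choroid plexus macrophages 5 were called, 4 higher (Nr1h3, Pparg, Rara and Rarb) and 1 lower (Ppard), against 19.2% of all genes, 12.1% higher and 7.11% lower. In MHC II-high dura 6 were called, 5 higher (Nr1h3, Pparg, Rara, Rarb and Vdr) and 1 lower (Nr1d1), against 27.9% of all genes, 15.7% higher and 12.2% lower. In MHC II-low dura 5 were called, 4 higher (Nr1h3, Pparg, Rara and Vdr) and 1 lower (Nr1d1), against 26.5% of all genes, 13.8% higher and 12.7% lower. The 4 comparisons share the microglia libraries.

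**Figure D4:**
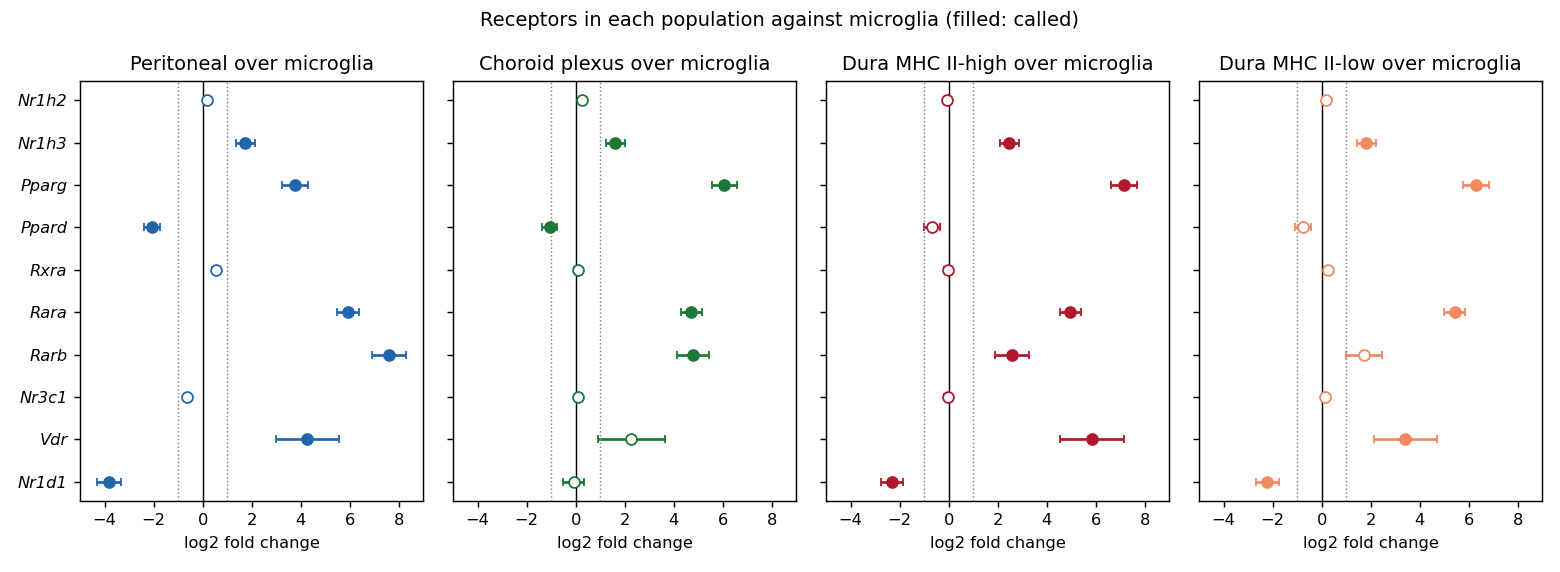
Log2 fold changes of the 10 receptors in each of 4 populations over microglia, with bars for 1 approximate standard error and dotted lines at 2-fold; filled points were called. Rara, Pparg and Nr1h3 lay above 2-fold in all 4, and Nr1h2, Rxra and Nr3c1 stayed within 2-fold in all 4.

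Peritoneal macrophages differed from choroid plexus macrophages in 5 receptors, 2 higher (Rara and Rarb) and 3 lower (Pparg, Nr1d1 and, at the 2-fold limit, Ppard), where 36.7% of all genes were called, 12.6% higher and 24.1% lower. From MHC II-high dura macrophages they differed in 4, 1 higher (Rarb) and 3 lower (Pparg, Ppard and Nr1d1), against 29.2% of all genes, 9.18% higher and 20.1% lower, and from MHC II-low dura macrophages in the same 4, against 31.9% of all genes, 11.9% higher and 20% lower. Choroid plexus macrophages had 2 receptors higher (Rarb and Nr1d1) and 2 lower (Pparg and Vdr) than MHC II-high dura macrophages, against 9.88% of all genes, 5.87% higher and 4.00% lower. They had 2 higher (Rarb and Nr1d1) and 0 lower than MHC II-low dura macrophages, against 12.8% of all genes, 8.63% higher and 4.18% lower.

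Between MHC II-high and MHC II-low dura macrophages edgeR called 0 of the 10 receptors, where 3.88% of all genes were called, 2.39% higher and 1.48% lower. The 3 receptors with the lowest edgeR adjusted p were Nr1h2 (0.0885), Pparg (0.126) and Vdr (0.133). DESeq2 called 0, and limma-voom called 1, Vdr. Without MHC II-low replicate 4 edgeR called 1, Pparg (1.19, edgeR adjusted p = 0.0436). Of 23 other nuclear receptors tested, the mineralocorticoid receptor Nr3c2 was called lower, and did not enter the test under the 10 CPM filter.

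Among those 23 other receptors, 2 were higher and 9 lower in peritoneal macrophages than in microglia, 8 and 0 in choroid plexus (1 lower without choroid plexus replicate 2 or MHC II-high replicate 1 or 2), 5 and 2 in MHC II-high dura (3 higher and 1 lower without MHC II-high replicate 3, and 1 lower without microglia replicate 4) and 5 and 0 in MHC II-low dura macrophages (1 lower without choroid plexus replicate 4, MHC II-high replicate 1 or 3, or MHC II-low replicate 3). The 10 CPM filter, which tests fewer genes, left 1 higher and 3 lower in peritoneal, 5 higher in choroid plexus and 3 higher and 0 lower in MHC II-high dura macrophages. The fit of only the 2 populations gave 4 higher in peritoneal macrophages and 1 lower each in choroid plexus and MHC II-low dura macrophages. DESeq2 and limma-voom gave 2 lower each in choroid plexus macrophages, and 1 and 2 lower in MHC II-low dura, where RLE and upper-quartile scaling and no filter gave 1. The replicate block gave 1 lower in MHC II-high dura. Nr4a1, an early response receptor, was at 25.5 ± 11.8 CPM in peritoneal macrophages against 383 ± 148 CPM in microglia (−3.91 ± 0.47), and Rxrb, a second partner receptor, at 63.8 ± 8.69 against 133 ± 10.6 CPM (−1.05 ± 0.10, and −0.98 without peritoneal replicate 3; SD, n = 4 each). Of 16 coregulators, 1 was higher and 3 lower in peritoneal, 0 and 1 in choroid plexus, 2 and 1 in MHC II-high and 0 and 3 in MHC II-low dura macrophages than in microglia. Without peritoneal replicate 2 the peritoneal count was 5 lower, without microglia replicate 4 the MHC II-high count was 1 higher, and without MHC II-low replicate 3 or microglia replicate 1 the MHC II-low count was 1 higher. Upper-quartile scaling left 1 higher in MHC II-high dura, and limma-voom gave 1 higher each in choroid plexus and MHC II-low dura macrophages. The corepressor Nrip1 was among the lower ones in all 4, at 134 ± 24.3, 109 ± 8.06, 82.4 ± 6.82 and 98.3 ± 7.67 CPM against 302 ± 23.7 CPM in microglia (SD, n = 4 each).

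Counted per length, so that genes can be compared, Nr3c1, Nr1h2 and Rxra together made up most of the summed CPM per kilobase of the 10 receptors in every population. Nr3c1 had 18.3 ± 1.66% in peritoneal, 27.2 ± 2.23% in choroid plexus, 29.8 ± 2.23% in MHC II-high and 30.4 ± 1.61% in MHC II-low dura macrophages and 31.4 ± 6.17% in microglia (SD, n = 4 each). Nr1h2 had 23.4–26.4% by mean in every population. Rara and Rarb together were prominent in peritoneal macrophages, where they had 16.3 ± 1.61% and 8.49 ± 1.35%, against 0.281 ± 0.309% and 0.0431 ± 0.0707% in microglia. Nr1d1 had 17.8 ± 2.36% in choroid plexus macrophages, and 22.5 ± 8.65% in microglia, against at most 4.60 ± 1.36% by mean in dura and peritoneal macrophages.

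**Figure D5:**
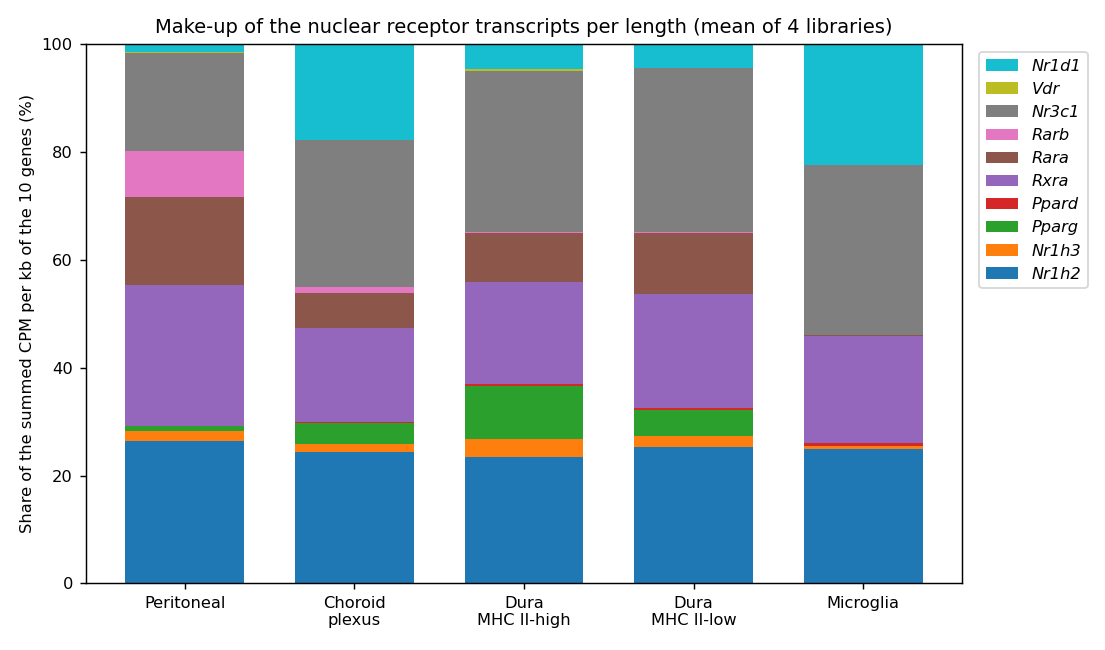
Share of each receptor gene in the summed CPM per kilobase of exon of the 10 genes, as the mean of 4 libraries in each population. Rarb and Rara widened in peritoneal macrophages, Pparg in MHC II-high dura macrophages, where it had 9.84%, and Nr1d1 in choroid plexus macrophages and microglia.

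For each of the 7 receptors called in some comparison, the genes most alike were sought by Pearson correlation of log2 CPM over the 20 libraries, among tested genes at 10 CPM or more in their highest population. They were Emilin1 (0.98), Pdlim7 (0.97) and Pdlim2 (0.96) for Rarb, Ifitm2, Vav3 and Mfsd6 (0.98 each) for Rara, and Myo5a, Sh3pxd2b and Mdfic (0.97 each) for Pparg. For Nr1d1 they were Rabac1 (0.95), Nr1d2 (0.94) and Mepce (0.92), and for Ppard Bco2 (0.95), Nars (0.94) and Qk (0.94). Nr1h3 was most like Adamtsl4, Aes and P2ry14 (0.90 each), and Vdr, with few counts, most like Actr2 (0.82), Eya3 (0.81) and Rasgrp1 (0.80). The points share libraries of 5 populations, so these values describe the order of the populations and are no test. Between the receptors themselves, Ppard and Rarb ran opposite (−0.92), and Nr1h3 and Rara ran together (0.83).

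By GENCODE M21 on mm10, all 10 genes are protein-coding. Rxra lies on chromosome 2 (27676440–27762957, plus strand), Nr1h3 on chromosome 2 (91184061–91202834, minus), Pparg on chromosome 6 (115360951–115490399, plus) and Nr1h2 on chromosome 7 (44549616–44553951, minus). Nr1d1 (98767932–98775333, minus) and Rara (98927818–98974942, plus) lie on chromosome 11, Rarb on chromosome 14 (16430839–16819156, minus) and Vdr on chromosome 15 (97854425–97910630, minus). Ppard lies on chromosome 17 (28232700–28301474, plus) and Nr3c1 on chromosome 18 (39410545–39519421, minus). Rarb and Nr1d1 were the 2 whose exons overlap those of another counted gene.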

How the data were processed

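Gene counts of 20 libraries were used as the authors deposited them, as whole numbers per gene symbol with 5 lines of reads given to no gene, which were left out (5.67–13.1% of reads without a feature and 0.836–1.51% ambiguous). Per the submitters' processing notes, the tools were Trimmomatic 0.38, SAMtools 0.1.18, TopHat2 2.1.0 and FastQC 0.11.4, and the build named is mm10; counting program, annotation and strand setting were not stated. All libraries entered 1 edgeR 4.0.16 fit (R 4.3.3, TMM factors 0.923 to 1.05, filterByExpr, robust quasi-likelihood test, 15 residual degrees of freedom, Benjamini-Hochberg adjustment), tested on simulated data. Floors and count intervals (95%) cover counting error only. Receptors and gene lists were chosen with earlier results of these data known. Named list genes are at most 3 called genes per list, comparison and direction, by fold change at 10 CPM or more; genes outside this rule, such as Crabp1, Crabp2, Rbp4, Nr3c2 and Zbtb16, are named to resolve small counts and were picked after their values were seen. Alternatives were RLE and upper-quartile scaling, DESeq2 1.42.0, limma-voom (limma 3.58.1), no filter, 10 CPM in 4 libraries, only the 2 populations compared, a replicate block, and each library left out. No 2 libraries held identical counts. Promoters came from RefSeq on GRCm38.p6, and positions from GENCODE M21, in which 23376 of 24421 symbols matched.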

Additional observations from a re-analysis of the deposited data

Results flagged for a closer look

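In groups of 4 libraries, 1 library was taken to stand far from the others if its gap to the nearest one, as a share of the group's range, exceeded Dixon's critical value at the 95% level. For values of normal spread chance alone gives about 1 in 20 groups, and 4 of the 50 groups of receptor levels had such a library. That rate does not hold for Vdr and Rarb in microglia, with 2 and 16 counts in all, and the 50 groups share libraries. Rarb was at 14.2 CPM in choroid plexus replicate 4, against 3.84–5.42 CPM in the other choroid plexus libraries, and this library also had the most fibroblast markers of its group. Rarb was at 72.8 CPM in peritoneal replicate 4, against 38.2–42.4 CPM in the other peritoneal libraries. In microglia, replicate 3 had 0.864 CPM of Rarb against 0–0.0661 CPM, and 0.123 CPM of Vdr against 0 in the others; it also had the choroid plexus epithelial transcripts. Whether other cells gave these reads was not tested.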

How the results depend on the processing

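Of 42 called differences in the 10 receptors, 37 held in all 8 other settings that tested the gene and without any 1 library; the exceptions were those of Pparg and Vdr between choroid plexus and MHC II-high dura, Ppard between choroid plexus and microglia and between peritoneal and choroid plexus macrophages, and Vdr between MHC II-low dura and microglia. Limma-voom called 1 receptor between the dura groups, against 0. Limma-voom and the fit of only the 2 populations also called Vdr lower in peritoneal than in MHC II-high dura macrophages. A filter of 10 CPM in 4 libraries kept 7 receptors, so that 4 were called in peritoneal, 3 in choroid plexus and 3 in MHC II-low dura macrophages against microglia. With single libraries left out, 0 to 1 receptors were called between the dura groups and 2 to 4 between choroid plexus and MHC II-high dura macrophages.

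Changes near 0 turned their sign. For Nr1h2 in peritoneal over MHC II-low dura (−0.02), RLE gave 0.012, upper quartile 0.022, DESeq2 0.011 and the fit of only these 2 populations 0.0082. For Nr3c1 over microglia, that kind of fit gave −0.016 in choroid plexus macrophages (0.08 with all libraries), and for Nr1d1 there limma-voom gave 0.0027 (−0.09 by edgeR). With single libraries left out, Nr1h2 lay between −0.0070 and 0.10 in choroid plexus and between −0.038 and 0.027 in peritoneal over MHC II-low dura. Nr1h3 lay between −0.25 and 0.12 in peritoneal over MHC II-low dura and between −0.034 and 0.25 in peritoneal over choroid plexus macrophages. Pparg lay between −0.41 and 0.10 in choroid plexus over MHC II-low dura, and Ppard between −0.057 and 0.18 and Nr1d1 between −0.33 and 0.13 in MHC II-high over MHC II-low dura. Over microglia, choroid plexus macrophages had −0.0031 to 0.10 for Rxra, −0.068 to 0.095 for Nr3c1 and −0.31 to 0.21 for Nr1d1, and MHC II-low dura −0.016 to 0.15 for Nr3c1. The cause was not tested.

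Over all populations together, replicate numbers showed no general pairing: of 36 same-numbered pairs, 1 had deviations correlated above 0.1 (median 0.00912). Between the dura groups the same-numbered pairs had 0.024, 0.086, 0.054 and 0.120, and the other pairs −0.082 to 0.079. The pooled count cannot settle whether dura libraries of one number are paired. With the replicate block, 4 receptors each were called in choroid plexus and MHC II-low dura macrophages over microglia and in peritoneal over choroid plexus macrophages, 1 fewer each, and Nr3c1 in MHC II-high dura over microglia was 0.010 instead of −0.05. Upper-quartile scaling moved the median of all genes by −0.108 in MHC II-high dura over microglia. Depth limits Vdr and microglial Pparg and Rarb, which rest on few counts.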

Other observations

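Replicate 1 had the lowest Nr1d1 of its group in all 5 populations, at 1.59 CPM in peritoneal, 49.3 CPM in choroid plexus, 8.90 CPM in MHC II-high dura and 7.42 CPM in MHC II-low dura macrophages and 42.8 CPM in microglia. This was noticed after the values were seen, and no label links libraries of one number. Over 49 nuclear receptor genes, 13 had a mean of at least 10 CPM in peritoneal macrophages, 18 each in choroid plexus, MHC II-high and MHC II-low dura macrophages, and 12 in microglia. The per-length log2 ratio of Rara to Rarb was 0.95 ± 0.13 in peritoneal, 2.77 ± 0.90 in choroid plexus, 5.01 ± 0.38 in MHC II-high and 6.35 ± 0.51 in MHC II-low dura macrophages (SD, n = 4 each), with no overlap between these 4. In microglia, where 57 of 83 Rara counts and 14 of 16 Rarb counts were in replicate 3, no ratio is given.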
